A study of Homo sapiens with 10 samples.

Results

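Peaks of N6-methyladenosine (m6A) were described over 10 genes of the Wnt pathway in 5 human colon cancer cell lines. The genes were APC, CTNNB1, AXIN2, TCF7L2, RNF43, ZNRF3, LGR4, LGR5, BCL9 and ASCL2, and a peak belonged to a gene when its summit lay in a fixed hg19 span of that gene. Of 38106 peaks in the 5 lists, 38 had their summit in these spans, which cover 1.018 Mb in all. They lay in 8 of the 10 genes. CTNNB1 and LGR5 had no peak in any list.

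Fragmented total RNA was enriched with an m6A antibody and sequenced beside unenriched input (MeRIP-seq). Each line, HCT116, HT29, HCT15, COLO320DM and COLO205, had 1 immunoprecipitation (IP) and 1 input, all from untreated cultures as far as the labels say. The labels give colon for COLO205 and COLO320DM and colorectum for HCT116, HT29 and HCT15. HCT116 is known for an activating CTNNB1 mutation, and the other lines for truncated APC. With 1 library per line there was no replicate spread and no test between lines, so each difference compares libraries.

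Wnt signalling works through β-catenin, the product of CTNNB1. A destruction complex that holds APC and an AXIN protein marks β-catenin for breakdown, and a Wnt signal or a mutation of the complex lets it enter the nucleus, where it acts with TCF factors such as TCF7L2 and the coactivator BCL9. RNF43 and ZNRF3 remove Wnt receptors from the cell surface, and the R-spondin receptors LGR4 and LGR5 counter them. AXIN2, LGR5, ASCL2, RNF43 and ZNRF3 are also known targets of the pathway in intestinal epithelium. m6A is a mark of messenger RNA known to be frequent near stop codons and in long internal exons.

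The COLO205 list held 9998 peaks, that of HCT116 9418, that of HT29 8941, that of COLO320DM 8832 and that of HCT15 917. IP depth, recovered from the peak values, was 2.99 M reads (M for mega) for COLO205, 1.38 M for HCT116, 2.13 M for HT29, 1.47 M for COLO320DM and 5.02 M for HCT15. The caller counted each HCT15 read as 0.322. Fold is the authors' ratio of IP signal at the summit over the background around it. IP reads are the reads over the summit, and local input is the background in input fragments. That background is the highest of several windows, so the fragments need not lie at the summit itself. Intervals of 95% cover counting error only. Those of folds cover the IP reads at a fixed background, so the counting error of the input is left out.

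Wnt gene peaks numbered 13 in COLO205, 12 in COLO320DM, 8 in HCT116, 5 in HT29 and 0 in HCT15. They were 0.0849% of the HCT116 list (exact Clopper-Pearson interval 0.0367% to 0.167%), 0.0559% of the HT29 list (0.0182% to 0.130%), 0.136% of the COLO320DM list (0.0702% to 0.237%) and 0.130% of the COLO205 list (0.0693% to 0.222%). These intervals overlap. In HCT15 the 0 of 917 peaks allow a share of up to 0.327% by the limit of 3 counts and up to 0.401% by the exact interval, and at the pooled share of the other 4 lists 0.937 peaks would have been counted there. The lack of Wnt gene peaks in HCT15 was therefore not distinguishable from the length of its list. COLO205 had a peak in 7 of the genes, COLO320DM in 6, HT29 in 5 and HCT116 in 4.

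**Figure D1:**
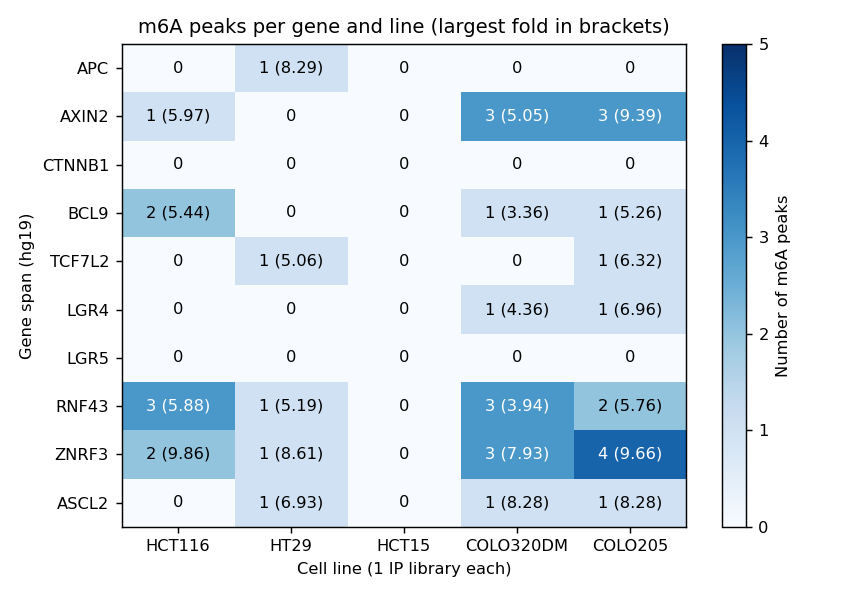
Number of m6A peaks in each gene span (rows) and line (columns, 1 IP library each), with the largest fold over local background in brackets. RNF43 and ZNRF3 had peaks in 4 lines each, while CTNNB1 and LGR5 had 0 in every line.

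APC, the scaffold of the destruction complex, had a single peak, in HT29. It lay on chromosome 5 from 112174414 to 112174531, with 9 IP reads over 0.30 local input fragments and a fold of 8.29. Its summit stood 7.52 kb from the 3′ end of a span of 139 kb. The lists of the other 4 lines held no APC peak.

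AXIN2, a scaffold of the same complex, had 7 peaks in 4 regions, a region being peaks of any lists that overlap by at least 1 nt. Regions are numbered from the 5′ end of the gene. Region 4, on chromosome 17 from 63525804 to 63526138 and 1.89 kb from the 3′ end of the span, was called in 3 lists. HCT116 had 16 IP reads there and a fold of 5.97, COLO320DM 40 and 5.05, and COLO205 15 and 9.39. The summits of these 3 peaks lay within 45 nt. COLO320DM thus had the most IP reads and the lowest fold. Its local input was 11.0 fragments, against 3.0 in HCT116 and 1.28 in COLO205.

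The other AXIN2 regions were near the 5′ end, 3.29 to 3.97 kb into the span, and were seen in COLO320DM and COLO205 alone. Region 3, from 63553972 to 63554133, had 42 IP reads and a fold of 3.40 in COLO320DM, and 18 reads and a fold of 5.05 in COLO205. Region 2, from 63554247 to 63554384, was a COLO320DM peak with 46 IP reads, the most of any Wnt gene peak, but a fold of 2.84 over 24.0 local input fragments. Region 1, from 63554685 to 63554767, was a COLO205 peak with 14 IP reads and a fold of 6.34. HT29 had no AXIN2 peak.

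Among the nuclear effectors, CTNNB1 had no peak in a span of 42 kb. Its input level is not given by peak lists, so low coverage and a lack of enrichment cannot be told apart. At low local input, the fewest IP reads of any peak were 2 for COLO320DM and HCT116 and 3 for COLO205 and HT29.

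BCL9, which links β-catenin to its coactivators, had 4 peaks, each a region of its own, crowded between 147095716 and 147096744 on chromosome 1. HCT116 held 2 of them, with 12 and 15 IP reads and folds of 4.57 and 5.44. COLO320DM had 13 reads and a fold of 3.36, and COLO205 had 6 reads and a fold of 5.26. Summits stood 2.31 to 3.25 kb from the 3′ end of a span of 86 kb. The 3 lines thus had peaks in the same stretch of the gene, yet no peak of a line overlapped that of another.

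TCF7L2, the main TCF factor of intestinal epithelium, had 2 peaks in 2 lists. In COLO205 a peak of 76 nt, from 114903683 to 114903758 on chromosome 10, had 6 IP reads over 0.195 local input fragments and a fold of 6.32. In HT29 a peak from 114911451 to 114911602 had 11 reads over 2.0 fragments and a fold of 5.06. The summits were 24.3 and 16.5 kb from the 3′ end of a span of 218 kb. These peaks were not shared, and neither rested on many reads.

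Of the R-spondin receptors, LGR5, the marker of intestinal stem cells, had no peak in a span of 148 kb. LGR4 had 1 region, on chromosome 11 from 27494148 to 27494302, with peaks in COLO320DM and COLO205 whose summits lay 21 nt apart. COLO320DM had 9 IP reads and a fold of 4.36 (2.23 to 7.88), and COLO205 had 10 reads and a fold of 6.96 (3.67 to 12.3). The fold intervals overlap. LGR4 was the only gene whose peaks all lay at the 5′ end, 0.81 kb into a span of 108 kb.

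The sequence around the start of LGR4 is shown because its peaks lie near that start. It is from RefSeq, build GRCh38.p14, minus strand, chr11:27472741-27473040, 250 bases before to 50 after the gene's start, and is printed 5′ to 3′. The peaks are on hg19, so their distance to this window was not measured. Capitals mark GGAC, the core of the commonest m6A consensus, which was searched on both strands.
LGR4 start: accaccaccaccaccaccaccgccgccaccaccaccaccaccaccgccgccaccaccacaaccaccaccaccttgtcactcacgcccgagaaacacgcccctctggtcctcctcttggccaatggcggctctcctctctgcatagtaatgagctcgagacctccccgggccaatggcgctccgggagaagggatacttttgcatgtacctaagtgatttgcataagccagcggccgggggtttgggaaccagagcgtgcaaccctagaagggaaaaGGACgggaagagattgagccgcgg
GGAC occurred 1 time on the printed strand, which has the sense of the transcript, and 1 time on the other strand, printed as GTCC. The first of these is at base 277, which is within the first 50 transcribed bases. GGAC is present anywhere in 66.3% of the 35116 windows of the table, and either form in 87.4%, so its presence in the window is ordinary. Most bases of a window lie before the start, and the share within the 50 bases after it was not taken.

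The ubiquitin ligases RNF43 and ZNRF3 held 19 of the 38 peaks, and were the genes with a peak in all 4 long lists. RNF43 had 9 peaks in 3 regions. Region 1, on chromosome 17 from 56492740 to 56492913 and 2.20 kb from the 5′ end, was called in 4 lists with summits within 43 nt. COLO205 and COLO320DM had 27 IP reads each there, HCT116 23 and HT29 22. The fold was 5.76 for COLO205 (3.86 to 8.28), 2.62 for COLO320DM (1.76 to 3.76), 5.88 for HCT116 (3.82 to 8.71) and 5.19 for HT29 (3.34 to 7.75). Per M IP reads of the library these were 18.3 for COLO320DM, 16.7 for HCT116, 10.4 for HT29 and 9.04 for COLO205. The COLO320DM fold stood below the others, over 15.0 local input fragments against 5.0, 5.0 and 7.0 in HCT116, HT29 and COLO205. With the background held fixed, the fold interval of COLO320DM overlapped that of HT29 and not those of HCT116 and COLO205. Background error would widen these intervals, so their separation is not a test.

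The remaining RNF43 regions lay 4.64 and 4.05 kb from the 3′ end. Region 2, from 56435522 to 56435748, had folds of 4.17 in HCT116, 2.78 in COLO320DM and 4.20 in COLO205 on 24, 27 and 14 IP reads. Its summits were spread over 193 nt, the widest of any shared region here. Region 3, from 56434952 to 56435154, had folds of 3.77 in HCT116 and 3.94 in COLO320DM, with summits 3 nt apart. HT29, with its peak in region 1, had none at this end of the gene.

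ZNRF3 had 10 peaks in 4 regions, all in the last 20% of a span of 175 kb. Region 1, on chromosome 22 from 29445259 to 29445697, was called in 4 lists with summits within 42 nt. HCT116 had 21 IP reads over 2.0 local input fragments and a fold of 9.86 (6.27 to 14.8), the highest deposited fold of any Wnt gene peak. Without the caller's pseudocount of 1 it was 17.1, below several peaks of low background, such as that of TCF7L2 in COLO205 at 55.7. HT29 had 20 reads and a fold of 8.61 (5.42 to 13.1), and COLO205 had 32 reads and a fold of 7.65 (5.31 to 10.7). COLO320DM had 45 reads over 16.0 fragments and a fold of 4.05 (2.98 to 5.39). COLO320DM again combined the most reads with the lowest fold. Its interval, which leaves out background error, touched only that of COLO205.

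Region 3 of ZNRF3, from 29446500 to 29446883, had its summits within 3 nt in 3 lists. Folds were 5.77 in HCT116, 7.93 in COLO320DM and 9.66 in COLO205, on 19, 44 and 30 IP reads. Here COLO320DM did not have the lowest fold. The COLO320DM peak had the highest −log10 p of the Wnt genes, 27.9. Region 4, from 29449678 to 29449803, had folds of 6.95 in COLO320DM and 6.4 in COLO205. Region 2, from 29445882 to 29445979, was a COLO205 peak with 18 reads and a fold of 5.20.

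ASCL2, a transcription factor of intestinal stem cells, had 1 region, on chromosome 11 from 2289873 to 2290037, with peaks in 3 lists. HT29 had 7 IP reads over 0.225 local input fragments and a fold of 6.93. COLO320DM had 18 reads over 2.0 fragments and a fold of 8.28, and COLO205 had 21 reads over 3.0 fragments and a fold of 8.28. The folds were within 1.20 times of each other, but only with the pseudocount of 1 that the caller adds to signal and background. Without it they were 45.4 in HT29, 13.9 in COLO320DM and 12.7 in COLO205, so HT29 moved to the top on its low background. HCT116 had no ASCL2 peak. Summits were 0.933 to 0.997 kb from the 3′ end of a span of 4 kb.

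The peak lists carry no strand. In the RefSeq gene table the RNAs TSPOAP1-AS1, ZNRF3-AS1 and LGR4-AS1 overlap RNF43, ZNRF3 and LGR4, and their reads cannot be told apart from those of the Wnt genes. That table also has the pseudogenes CBX3P3 and RNU6-482P over APC, RPS15AP30, SNORA87 and a long non-coding RNA over TCF7L2, and a further protein-coding entry over BCL9. Whether any of these lies at a peak was not determined. No hg19 exon annotation was used, so exons, stop codons and untranslated regions were not assigned.

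Along the spans, peaks sat at the ends. Of the 38 peaks, 25 had their summit in the last 20% of the span, 65.8% (exact interval 48.6% to 80.4%), 10 in the first 20% and 3 between. The 3 between were those of ASCL2, whose short span puts them 75.1% to 76.7% of the way along. The 10 near the 5′ end were in AXIN2, RNF43 and LGR4. AXIN2 and RNF43 had peaks at both ends and none between. Span bounds are rounded to 1 kb, and overlapping peaks of different lines are counted separately. The interval treats all peaks as independent, so it is too narrow. Spans include introns, and no such share was taken over other genes.

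**Figure D2:**
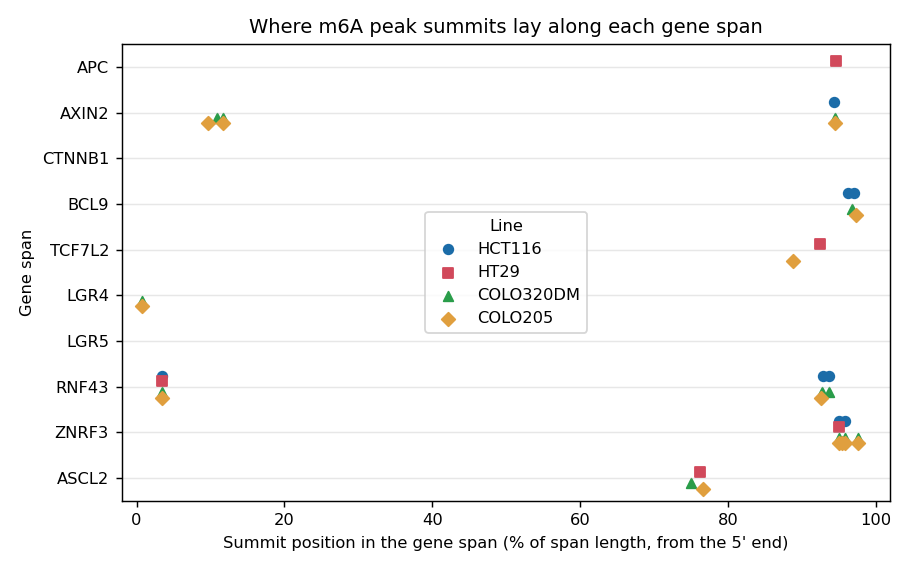
Position of each peak summit along its gene span, in percent of span length from the 5′ end, by gene (rows) and line (symbols). Of 38 summits, 25 lie in the last 20% of a span and 10 in the first 20%.

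Across lines, the 38 peaks formed 20 regions. A single list held 10 of them, 2 lists held 4, 3 lists held another 4, and 4 lists held 2. Regions in at least 2 lists were 10 of 20, against 36.0% of the 22315 regions of the series. Regions in at least 3 lists were 6 of 20, against 18.1%, and those in all 4 long lists 2 of 20, against 6.87%. Wnt gene peaks were mostly input-covered, meaning a local background of at least 1 input fragment, in 34 of 38 cases. By line these were 8 of 8 in HCT116 against 58.1% of its list, 3 of 5 in HT29 against 39.0%, 12 of 12 in COLO320DM against 61.8%, and 11 of 13 in COLO205 against 51.8%. The 4 others were the APC peak, the ASCL2 peak of HT29, and the TCF7L2 and BCL9 peaks of COLO205. Over regions with mostly input-covered peaks, a background chosen with the data in view, 10 of 17 Wnt gene regions were in at least 2 lists against 46.7%, 6 against 29.6% in at least 3, and 2 against 14.0% in all 4 long lists. With so few regions these shares are near the background, and the regions of 1 gene are not independent.

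By line, COLO205 had a peak in 13 of the 20 regions, against 42.4% of all regions, and COLO320DM in 12, against 38.1%. HCT116 had a peak in 8, against 40.2%, and HT29 in 5, against 38.3%. HCT15 had 0, against 3.59%. Among the 10 Wnt gene regions in at least 2 lists, COLO320DM and COLO205, the lines labelled colon, shared 9, against 35.7% of the 8025 such regions of the series. The exception was RNF43 region 3. COLO320DM shared 6 with HCT116, against 43.9%, and COLO205 shared 5 with HCT116, against 46.4%. HT29 shared 3 with COLO205, against 54.8%, 3 with COLO320DM, against 28.7%, and 2 with HCT116, against 40.2%. COLO320DM had a peak in each of these 10 regions, so its count with another line is that line's own count among them. The 9 shared with COLO205 therefore follow from how many of the regions each of these lists held, and show no particular link between the lines. Over the series, the pair that shared most was HT29 and COLO205. These counts come from 5 genes and were not tested. The pair shares were not taken over input-covered regions alone, so this background is unlike the Wnt gene peaks in input coverage. The summits of a shared region were spread by a median of 31.5 nt.

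Wnt gene peaks rested on more reads than the typical peak of their list. The lists held a larger share of peaks that were not input-covered, and reads were not compared over input-covered peaks alone. The median number of IP reads was 19 in HCT116 against 11 over the whole list, 11 in HT29 against 8, 27 in COLO320DM against 12, and 16 in COLO205 against 9. In all, 34 of the 38 peaks were above their list's median of reads and 29 above its median −log10 p. Folds did not stand out, with 20 of 38 above the list median. The median fold was 5.61 in HCT116 against 5.08 over the list, 6.93 in HT29 against 5.67, and 6.34 in COLO205 against 5.65. In COLO320DM it was 4.0 against 5.23, and 3 of its 12 peaks were above the list median.

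The fold of COLO320DM was below that of other lines in several shared Wnt gene regions, but not in all. The shares over all shared regions given beside were not limited to input-covered peaks. COLO205 had a fold at least 1.5 times that of COLO320DM in 5 of their 9 shared Wnt gene regions, against 31.2% of all regions that the lines share. HCT116 passed COLO320DM by that factor in 2 of 6, against 18.9%, and HT29 in 2 of 3, against 16.4%. COLO320DM passed another line by 1.5 times in 0 of these regions, against 10.4% over COLO205, 14.4% over HCT116 and 19.5% over HT29. The regions that gave these counts were RNF43 region 1 and ZNRF3 region 1 in all 3 comparisons, with AXIN2 region 4, RNF43 region 2 and LGR4 in the comparison with COLO205 alone. The direction was not uniform. COLO320DM had the higher fold in ZNRF3 region 4 against COLO205, with ASCL2 level, in ZNRF3 region 3 and RNF43 region 3 against HCT116, and in ASCL2 against HT29. Without the pseudocount, a setting chosen with the data in view, the ASCL2 direction against HT29 turned, and the lines that passed COLO320DM by 1.5 times were COLO205 in 6 of 9 regions, HCT116 in 4 of 6 and HT29 in 3 of 3.

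**Figure D3:**
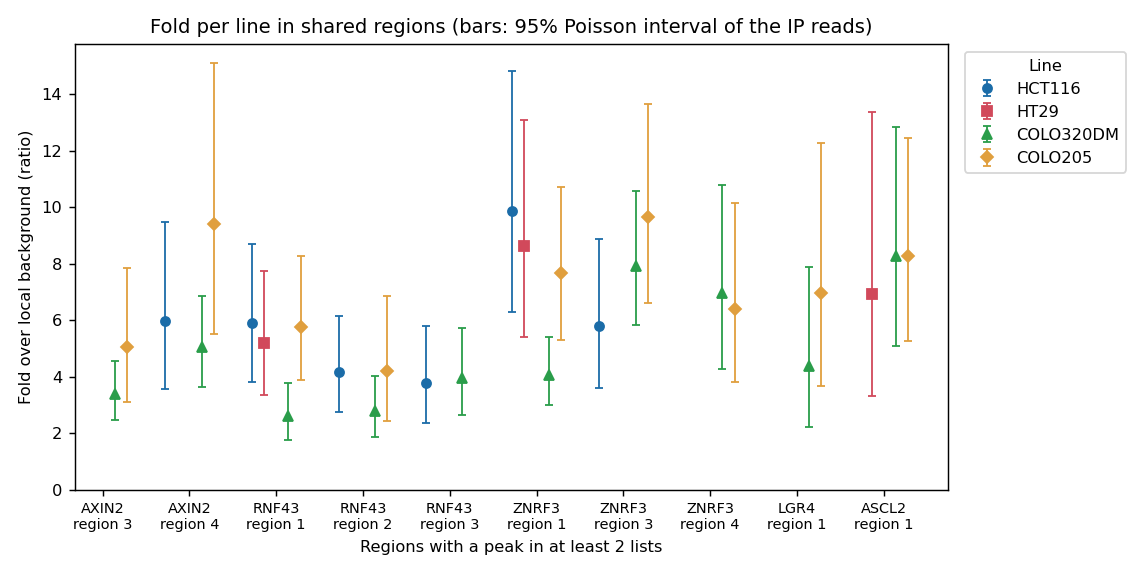
Fold over local background (y axis, ratio) of each line in the 10 Wnt gene regions with a peak in at least 2 lists, with bars for the 95% Poisson interval of the IP reads at a fixed background. COLO320DM is lowest in RNF43 region 1 (2.62) and ZNRF3 region 1 (4.05) and level with COLO205 in ASCL2 (8.28 each).

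The IP reads went the other way. Summed over Wnt gene peaks, COLO320DM had 355 IP reads, COLO205 227, HCT116 149 and HT29 69. Per M IP reads of the library these were 241 in COLO320DM, 108 in HCT116, 76.0 in COLO205 and 32.5 in HT29. Such a sum grows with the number of peaks called, 12, 8, 13 and 5 in that order. The lists also differ as a whole. Over all shared regions, the median ratio of COLO320DM in IP reads per M was 2.70 to COLO205, 1.73 to HT29 and 0.999 to HCT116. AXIN2 contributed 86.9 reads per M in COLO320DM, 15.7 in COLO205 and 11.6 in HCT116. ZNRF3 contributed 72.6 in COLO320DM, 32.1 in COLO205, 29.0 in HCT116 and 9.41 in HT29. RNF43 differed less between COLO320DM, with 54.3, and HCT116, with 47.8, while COLO205 had 13.7 and HT29 10.4.

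Region by region, COLO320DM had more IP reads per M than HCT116 in 6 of 6 shared Wnt gene regions, with a median ratio of 1.64, against 0.999 over the 3523 regions that these lists share. Its local input per M was higher in 6 of 6 too, with a median ratio of 2.36 against 1.09. The values over all shared regions were not limited to input-covered peaks, so this background is unlike the Wnt gene peaks in input coverage. The local input of COLO320DM was at least 2 times that of HCT116 in 3 of these 6, against 23.0% of all shared regions. The 3 were RNF43 region 1, AXIN2 region 4 and ZNRF3 region 1, at 2.95, 3.61 and 7.87 times the HCT116 level. IP reads per M were at least 2 times as high in 3 of 6, against 7.86%, and these were the AXIN2 region and ZNRF3 regions 1 and 3. RNF43 was close in IP reads, at 1.05 to 1.28 times.

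Against HT29, COLO320DM had a median of 3.25 times the IP reads per M and 10.4 times the local input over 3 shared Wnt gene regions, against 1.73 and 1.75 over all 2302. The local input of HT29 there was 0.225 fragments in ASCL2, 5.0 in RNF43 region 1 and 2.1 in ZNRF3 region 1. A ratio of at least 2 held for local input in 3 of 3, against 44.7% of all shared regions, and for IP reads in 2 of 3, against 36.1%. Against COLO205 the medians were 2.85 and 5.09 over 9 regions, close to the 2.70 and 4.75 over all 2866. The local input ratios of the 9 ran from 1.58 to 20.5, and a difference from the lists as a whole was not tested. With a ratio of at least 2 over COLO205, 8 of 9 Wnt gene regions qualified in local input against 77.5% of all, and 7 of 9 in IP reads against 74.1%. AXIN2 region 4 had the widest gap, with 20.5 times the local input and 5.41 times the IP reads. That input ratio rests on 1.28 fragments in COLO205. No error was given to these ratios, and here too the values over all shared regions were not limited to input-covered peaks. Local input reflects both RNA level and the window the caller chose, and fewer cells that express a gene and less RNA per cell cannot be told apart in bulk RNA.

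**Figure D4:**
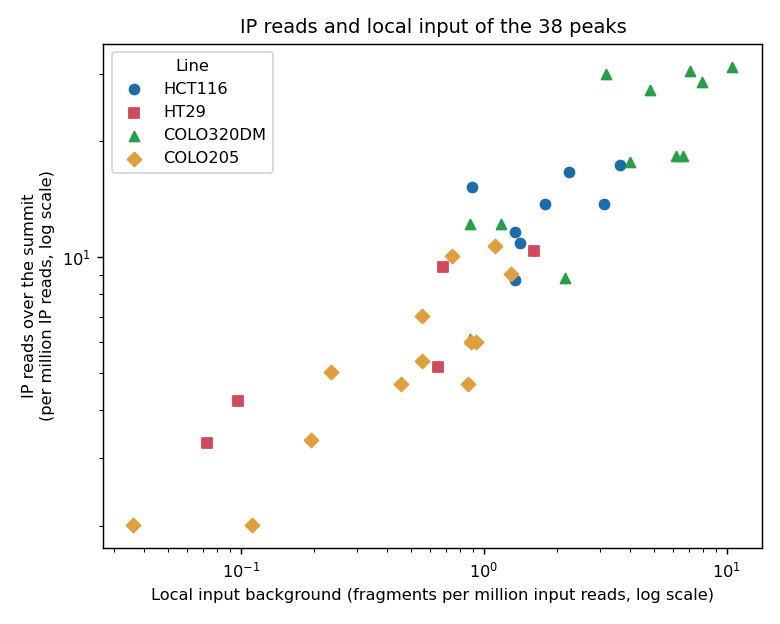
IP reads over the summit per M IP reads (y axis) against local input fragments per M input reads (x axis) for the 38 Wnt gene peaks, both on log scales, by line. COLO320DM peaks reach the highest levels on both axes, up to 31.2 IP reads and 10.5 input fragments per M, and COLO205 peaks lie lower, with up to 10.7 and 1.29. Over all regions that these lists share, the median ratio of COLO320DM to COLO205 was 2.70 in IP reads and 4.75 in local input.

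Just outside the spans, 4 peaks had their summit within 20 kb. In HCT116 a peak 9.99 kb before the 5′ end of TCF7L2 had a fold of 8.12 on 9 IP reads. HT29 and HCT116 had peaks 15.1 kb past the 3′ end of LGR4, from 27371903 to 27371984 and from 27371909 to 27372017, with folds of 11.8 and 9.56. In COLO320DM a peak 15.4 kb past the 3′ end of ASCL2 had a fold of 6.68. The members nearest to a bound were the LGR4 peaks, 0.81 kb inside, and the ASCL2 peaks, 0.933 to 0.997 kb inside.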

How the data were processed

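The authors' deposited narrowPeak lists, 1 per IP library with nothing pooled, were used. MACS2, BWA, FastQC, cutadapt and build hg19 are named, with no version or setting, per the submitters' processing notes. Each deposited peak has a fold (a ratio), a −log10 p, a −log10 q, a score that follows the −log10 q, and a summit offset. Starts and summits are printed counting from 1.

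IP reads and local background were solved for each peak from its fold and −log10 p under the MACS2 model, with a pseudocount of 1 and a tolerance of 0.001. A match was found for 100% of peaks of each list, and only 1 read count matched each Wnt gene peak. The recovery was tested on data simulated under the same model, which tests the solving step and not the model. Depths assume a genome of 2.7 Gb and, as fragment length, the shortest peak (73 to 75 nt). The control is taken to be the line's input, which the sources used here do not state. Input depth was 5.41 M reads for COLO205, 3.10 M for HT29, 2.28 M for COLO320DM, 2.24 M for HCT116 and 1.61 M for HCT15.

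In a region with several peaks of a list, that with the highest fold was used. Strand came from the RefSeq promoter table for 6 genes and from general knowledge for AXIN2, ZNRF3, LGR5 and ASCL2. Further pathway genes had no hg19 span here and were not analysed. Members, lists and comparisons were chosen with earlier results of these data known. Tools were matplotlib 3.10.9, scipy 1.17.1, pandas 2.3.3, numpy 2.4.6 and Python 3.11.15.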

Additional observations from a re-analysis of the deposited data

How the results depend on the processing

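Values rest on few reads per peak and on single libraries. With only the 917 strongest peaks of each list, Wnt gene peaks numbered 1 in HCT116, 0 in HT29 (0 of its genes and 0% of that list), 0 in HCT15, 1 in COLO320DM and 2 in COLO205, in 1 gene in each list that had any, and they formed 2 regions, 0 in 1 list, 2 in 2, 0 in 3 and 0 in 4. A fold of at least 4 left 6 peaks in COLO320DM. A −log10 q of at least 5 left 2 regions in 2 lists. Regions in all 4 long lists numbered 1, against 2, under each of 3 settings, a fold of at least 4, a −log10 q of at least 5 or reciprocal overlap of 50%. Leaving out the HT29 list gave 5 regions in all remaining long lists. With HCT116, HT29, COLO320DM or COLO205 left out, 0 regions were in 4 lists, as at most 3 long lists remain, and without COLO320DM or COLO205 2 regions were in 3. Without the pseudocount the median of the largest folds was 11.5 in place of 6.14, and 10 of 22 largest folds left their counting interval. Per M IP reads, HCT116 ranked 2 and COLO205 3 by summed reads, the reverse of their order in reads. Further settings were at least 5 IP reads, summits within 100 nt, any span overlap, spans changed by 2 kb and HCT15 left out. Each kept the counts it was applied to within 1.5 times. Span settings were applied to peaks and genes per list, not to regions. Narrowing by 2 kb emptied the 4 kb span of ASCL2 and dropped the peaks of LGR4 and of AXIN2 region 4. COLO320DM then had 9 peaks in 4 genes, COLO205 10 in 5, HCT116 7 in 3 and HT29 4 in 4. No paired analysis was possible because each line has 1 IP library and the results come from no test.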
